A study of Rattus norvegicus with 24 samples.

Results

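The 8 genes of a route that carries fatty acids from blood lipids into muscle fibres were looked up in the medial gastrocnemius of rats with cardiac cachexia (CC). These are the lipase Lpl, its endothelial anchor Gpihbp1 and its inhibitor Angptl4, the fatty acid transporters Cd36 and Slc27a1, the fatty acid binding proteins Fabp3 and Fabp4, and the lipoprotein receptor Vldlr. Members were taken by gene symbol, and 5 of the 8 (Lpl, Slc27a1, Fabp3, Fabp4 and Vldlr) had a row in the table of 10851 genes. Gpihbp1, Angptl4 and Cd36 have no row in the table and are not analysed here. No count in the table was below 10, so a missing row does not show that a gene is silent in muscle. Shares of all genes below are shares of the genes with a row. The 24 samples came from male Wistar rats, with 6 rats in each of 4 groups and 1 rat per library. The sedentary controls (Sed) and the treadmill-trained controls (Ex) received saline. The sedentary (CC-Sed) and the treadmill-trained (CC-Ex) cachectic groups received a single injection of monocrotaline, a plant alkaloid that injures lung vessels and leads to pulmonary hypertension and right heart failure. The age of the rats is not given in the sources used here, and the RNA was extracted from left-leg tissue that holds all cells of the muscle.

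Muscle takes up fatty acids from triglyceride-rich lipoproteins after lipoprotein lipase, the product of Lpl, has cut them free on the capillary wall. Gpihbp1 carries the lipase to the capillary lumen and Angptl4 inactivates it. Freed fatty acids cross the membrane with the help of Cd36 and of Slc27a1 (fatty acid transport protein), are bound inside the fibre by Fabp3 and inside adipocytes and endothelial cells by Fabp4, and Vldlr holds the lipoproteins near the lipase. Slow, oxidative fibres are known for higher levels of this machinery than fast, glycolytic fibres, and the gastrocnemius holds both kinds.

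Levels are given as CPM, the count of a gene relative to the TMM-scaled total count of its library. The libraries held 37816239 to 50350554 counts each, and the mean count of a member ran from 758 for Slc27a1 to 16999 for Lpl. Genes of fast fibres were abundant in every rat (8 of 10 markers in the table, summed level between 68191 and 194876 CPM). The 6 of 9 slow fibre markers in the table (Tnnc1, Tnni1, Myl3, Tpm3, Atp2a2 and Casq2) differed far more, with sums from 688 to 11945 CPM, while Myh7, the defining myosin of slow fibres, had no row. Adipocyte markers (3 of 8 in the table, Adipoq, Cfd and Lipe) summed to between 18.4 and 84.1 CPM, and endothelial markers (8 of 10) to between 205 and 343 CPM. Fewer cells of a type and less RNA per cell cannot be told apart in such samples.

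Lpl (ENSRNOG00000012181) showed the largest difference between the sedentary groups among the 5 genes. The lowest, median and highest levels were 73.7, 159.9 and 391 CPM in Sed and 114, 655 and 1018 CPM in CC-Sed. Of the 6 CC-Sed rats, 4 lay above the highest Sed rat, but replicates 2 and 3 (114 and 237 CPM) lay within the Sed range. The log2 fold change of 1.51 (a 2.85-fold higher level, 95% interval 1.21 to 6.72) had an adjusted p of 0.108 in the quasi-likelihood test of edgeR. In the trained rats the same 3 values were 88.0, 235 and 575 CPM in Ex and 81.1, 447 and 1001 CPM in CC-Ex. Only 2 CC-Ex rats lay above the highest Ex rat and 1 lay below the lowest, and the log2 fold change was 0.69 (1.62-fold, interval 0.70 to 3.75, edgeR adjusted p = 0.468). Over all CC rats against all controls, as the mean of both differences, it was 1.10 (2.15-fold, interval 1.18 to 3.91, edgeR adjusted p = 0.0521).

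Slc27a1 (ENSRNOG00000018170), which also activates the fatty acids it brings in, was higher in many but not all CC rats. Its lowest, median and highest levels were 5.31, 8.93 and 16.7 CPM in Sed and 6.56, 17.3 and 49.1 CPM in CC-Sed. Of the 6 CC-Sed rats, 3 lay above the highest Sed rat, and replicate 5 (49.1 CPM) was the highest of all 24. The log2 fold change was 1.22 (2.32-fold, interval 1.21 to 4.47, edgeR adjusted p = 0.0936). Levels ran from 8.30 through 13.1 to 27.7 CPM in Ex and from 6.67 through 21.4 to 42.6 CPM in CC-Ex, with 3 of 6 CC-Ex rats above the highest Ex rat and 1 below the lowest. The log2 fold change there was 0.61 (1.52-fold, interval 0.80 to 2.90, edgeR adjusted p = 0.406). Over all CC rats against all controls it was 0.91 (1.88-fold, interval 1.19 to 2.98), and with an edgeR adjusted p of 0.038 this was the only member to pass the adjusted p in any comparison, in which 27.8% of all genes did so. It passed in only 10 of the 24 fits that left out 1 rat, where the adjusted p ran from 0.0164 to 0.0787 (it passed without Sed 1 or 2, Ex 4, CC-Sed 1, 2, 3 or 4, or CC-Ex 4, 5 or 6).

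Fabp3 (ENSRNOG00000012879), the binding protein of heart and muscle fibres, was the most scattered of the 5. It lay at 71.7, 181 and 398 CPM (lowest, median, highest) in Sed and at 64.9, 244 and 743 CPM in CC-Sed. The CC-Sed rats reached both above the highest Sed rat (2 rats) and below the lowest (1 rat), with a log2 fold change of 0.66 (interval -0.81 to 2.13, edgeR adjusted p = 0.558). In Ex it lay at 66.8, 249 and 751 CPM and in CC-Ex at 17.5, 193 and 585 CPM, and no CC-Ex rat exceeded the highest Ex rat. The log2 fold change was -0.46 (interval -1.93 to 1.01, edgeR adjusted p = 0.703). With intervals this wide, neither a higher nor a lower level of Fabp3 was detectable.

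Fabp4 (ENSRNOG00000010805), which is known from adipocytes and capillary endothelium, held a narrow range in every group. It lay between 75.2 and 148 CPM in Sed (median 119), 93.3 and 150.4 CPM in Ex (median 106), 85.9 and 172 CPM in CC-Sed (median 112) and 58.2 and 146 CPM in CC-Ex (median 114). The groups overlapped almost fully, and the log2 fold changes were 0.06 (SE 0.20, edgeR adjusted p = 0.870) in sedentary rats and -0.07 (SE 0.20, edgeR adjusted p = 0.846) in trained rats. Their intervals ran from -0.36 to 0.47 and from -0.48 to 0.34, so a 2-fold difference lay outside both. The adipocyte markers overlapped between the groups as well, and none of the 3 passed the test in either comparison. Over all CC rats Adipoq fell (log2 fold change -1.09, edgeR adjusted p = 0.0451) and Lipe rose (0.68, edgeR adjusted p = 0.0141). Their part in the level of Fabp4 was not tested.

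Vldlr (ENSRNOG00000027491), the receptor for very low density lipoproteins, was also narrow in both control groups, at 67.1 to 103 CPM in Sed (median 90.1) and 75.6 to 92.2 CPM in Ex (median 84.7). It lay at 41.1 to 98.5 CPM in CC-Sed (median 79.4), where replicates 1 and 6 (41.1 and 42.9 CPM) were the lowest of all 24 rats, and at 52.7 to 102 CPM in CC-Ex (median 69.6), where 4 of 6 rats lay below the lowest Ex rat. It was the only member of the 5 with a negative log2 fold change in both comparisons, -0.29 (SE 0.18, edgeR adjusted p = 0.303) in sedentary and -0.16 (SE 0.18, edgeR adjusted p = 0.587) in trained rats. Over all CC rats it was -0.23 (interval -0.50 to 0.04, edgeR adjusted p = 0.187). CC-Sed replicates 1 and 6 also had the lowest fast fibre level of the 24 rats (mean log2 CPM of 11.6 and 11.8), and the part of that in the level of Vldlr was not tested.

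**Figure D1:**
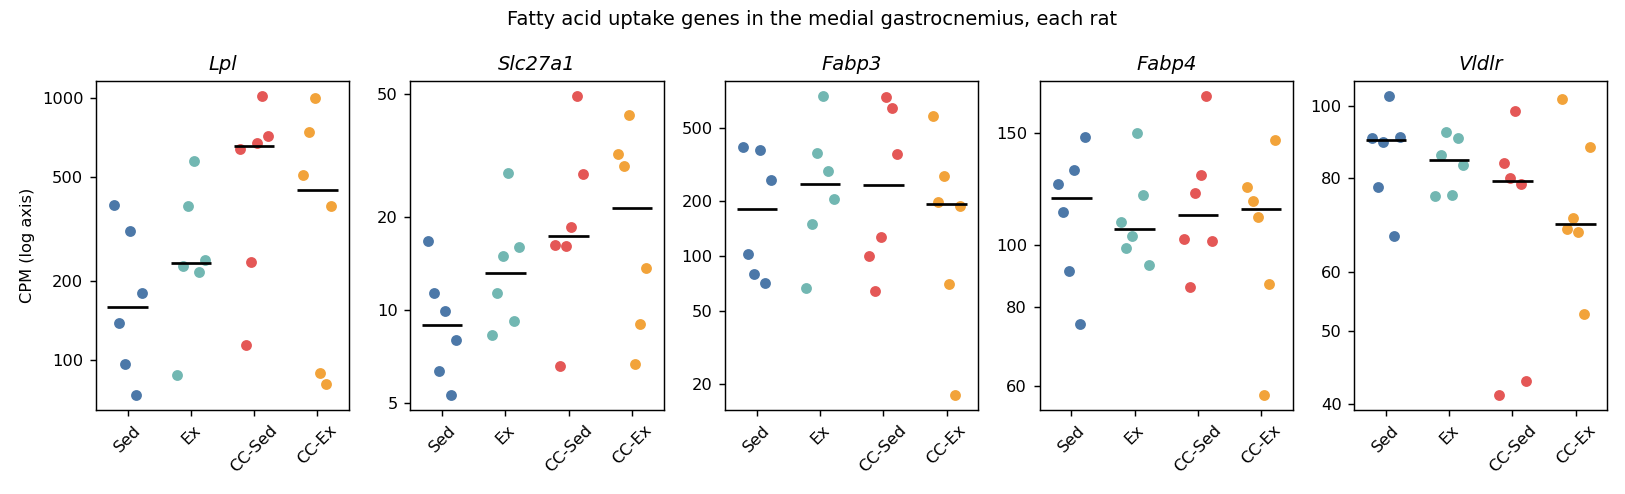
CPM (log axis, its range set for each gene) of the 5 genes in each rat, by group; points are rats and bars are medians of 6. Lpl and Slc27a1 reach their highest levels in CC rats, at 1018 and 49.1 CPM, yet rats at control levels stand in both CC groups, and all groups overlap.

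A gene was counted as differentially expressed (DEG) with an adjusted p under 0.05 and a log2 fold change of at least 1 in size, the thresholds of the study. The study applied them with DESeq2 and named Lpl and Slc27a1 among its upregulated DEGs in CC-Sed. By RT-qPCR it reported only a trend for the effect of disease on Lpl. Here the same thresholds were applied to the edgeR test, and the calls below differ from those of the study. A DESeq2 fit to the deposited counts did not call Lpl between Sed and CC-Sed either. The reason for the difference from the study was not tested. By edgeR, 0 of 5 members were DEGs between Sed and CC-Sed (1.87% of all genes were), 0 of 5 between Ex and CC-Ex (0.525% of all genes) and 0 of 5 between all CC rats and all controls (2.88% of all genes). By the adjusted p alone the counts were 0 of 5, 0 of 5 and 1 of 5, beside 6.46%, 0.995% and 27.8% of all genes. At an unadjusted p under 0.05, edgeR gave 2, 0 and 2 of 5 members in these 3 comparisons, beside 28.4%, 22.6% and 42.4% of all genes, and the 2 were Lpl and Slc27a1. By the adjusted p of DESeq2, 1 of 5 members passed between Sed and CC-Sed (Slc27a1, 0.0497, beside 12.3% of all genes) and 2 of 5 over all CC rats (32.1%). By that of limma-voom, 0 of 5 (22.8%) and 2 of 5 (36.4%) passed. In trained rats both tools passed 0 of 5, beside 6.32% and 9.61% of all genes. These counts over all CC rats were near the share of all genes. No member had groups without overlap (0 of 5), whereas 3.61% of all genes had none between Sed and CC-Sed and 1.08% between Ex and CC-Ex. Without CC-Ex replicates 4 and 5, the rats with the lowest slow fibre genes (a choice made after the data were seen), 2 of 5 members, Lpl and Slc27a1, were DEGs between Sed and CC-Sed (adjusted p = 0.0351 and 0.0345) and 2 of 5 over all CC rats (log2 fold change 1.35 and 1.11, edgeR adjusted p = 0.00967 and 0.00837). In that fit 3.40% and 2.50% of all genes were DEGs, in place of 1.87% and 2.88%. CC-Ex replicates 4 and 5 were also the lowest CC-Ex rats for Lpl (89.1 and 81.1 CPM) and Slc27a1 (6.67 and 8.98 CPM). Leaving them out thus raised the CC level by choice, while the other rats with low slow fibre genes (2 Sed, 1 Ex and 1 CC-Sed) were kept. Between Sed and CC-Sed the log2 fold changes stayed at 1.51 and 1.22, and only the SE fell (from 0.60 to 0.50 and from 0.46 to 0.40). The median log2 fold change of the 5 was 0.66 in sedentary and -0.07 in trained rats, against 0.02 and 0.01 for all genes.

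The comparisons of training used the same rats and so share samples with those above. The effect of training in controls (Sed vs. Ex) ran from -0.04 for Vldlr to 0.60 for Slc27a1 on the log2 scale, and in cachectic rats (CC-Sed vs. CC-Ex) from -0.62 for Fabp3 to 0.08 for Vldlr. No gene of the table was a DEG in either (0% of all genes, 0 of 5 members, and 0 genes by DESeq2 or limma-voom, with 118 and 234 genes at an unadjusted edgeR p under 0.05). The difference between the CC effect in trained and in sedentary rats (the interaction) was -0.82 for Lpl (interval -2.53 to 0.90), -0.61 for Slc27a1 (interval -1.93 to 0.70) and -1.12 for Fabp3 (interval -3.19 to 0.95). Fabp4 and Vldlr differed by -0.13 (interval -0.71 to 0.46) and 0.12 (interval -0.42 to 0.66). Again 0 of 5 members and 0% of all genes were DEGs, with 154 genes at an unadjusted p under 0.05 by edgeR and 0 by the adjusted p of any of the 3 tools. The smaller differences of Lpl and Slc27a1 in trained rats were therefore not shown to differ from those in sedentary rats.

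**Figure D2:**
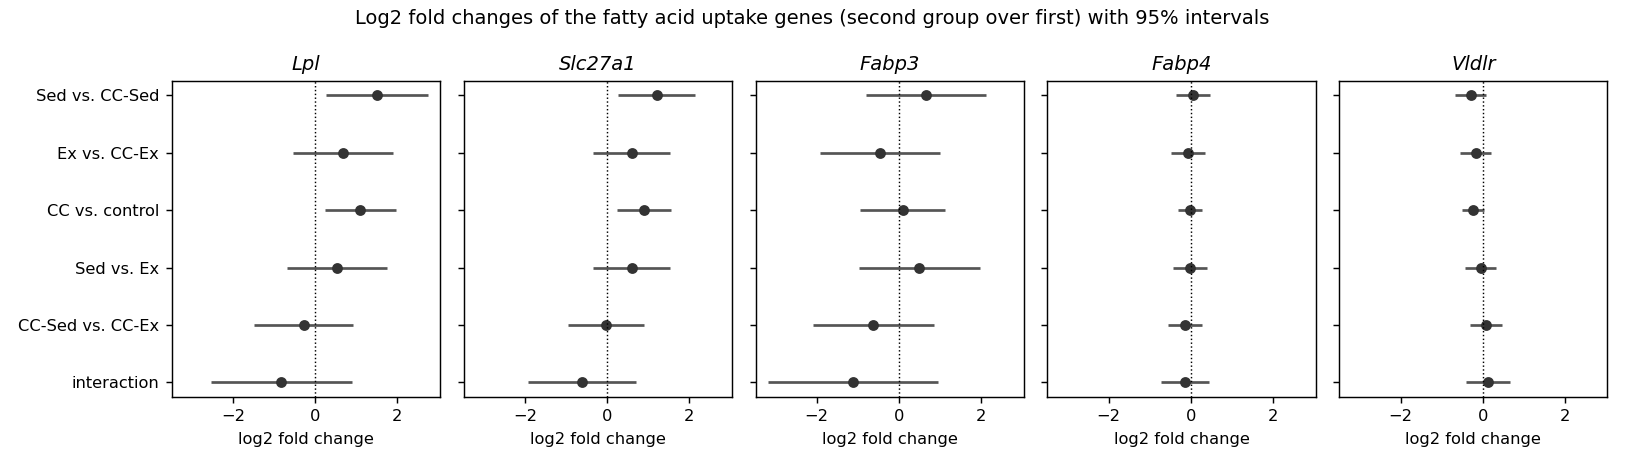
Log2 fold change (second group over the first) of each gene in the 6 comparisons, with points for the estimates and lines for 95% intervals. The intervals of Lpl and Slc27a1 lie above 0 for Sed vs. CC-Sed and for all CC rats against all controls, those of Fabp3 are wide, and those of Fabp4 and Vldlr are narrow and include 0.

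Rats of the same group differed widely in 3 of the 5 genes. After removal of the group means, the SD of log2 CPM was 1.42 for Fabp3, 1.18 for Lpl and 0.84 for Slc27a1, and only 56, 129 and 475 of the 10851 genes were more variable. For Fabp4 and Vldlr it was 0.37 and 0.34, close to the median of all genes (0.30). Within single groups, Lpl, Slc27a1 and Fabp3 differed by at least 3.14-fold between the lowest and the highest rat, and Fabp4 and Vldlr by at most 2.51-fold.

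Lpl and Fabp3, and by rank also Slc27a1, were high in rats in which slow fibre genes were high. The slow fibre level of a rat, the average of its 6 marker levels in log2 CPM, ran from 2.57 to 10.4. The rats fell into 6 at or below 4.98 (2 Sed, 1 Ex, 1 CC-Sed and CC-Ex replicates 4 and 5, the 2 lowest) and 18 at or above 6.31, so each gene was read within these 18. With group means removed, Lpl had r = 0.861 and rho = 0.812 with the slow fibre level (permutation p = 1.2e-04 and 3.0e-04, adjusted p = 0.0024 and 0.0060 over 20 relations) and r = 0.776 without the 2 farthest rats. Fabp3 had r = 0.752 and rho = 0.785 (permutation p = 0.00236 and 0.00182, adjusted p = 0.0206 and 0.0182, r = 0.664 without the 2 farthest). Slc27a1 had r = 0.561 and rho = 0.598 (permutation p = 0.0236 and 0.0160, adjusted p = 0.0674 and 0.0481, r = 0.693 without the 2 farthest). Fabp4 (r = 0.407, rho = 0.395, permutation adjusted p = 0.294 and 0.281) and Vldlr (r = 0.067, rho = 0.156, permutation adjusted p = 0.892 and 0.646) did not pass. Among the 6 low rats the r values were 0.313 for Lpl, 0.751 for Fabp3 and -0.597 for Slc27a1 (exact permutation p = 0.517, 0.0833 and 0.217).

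Over all 24 rats, with the slow fibre level in the edgeR model beside the groups, Lpl differed by 0.48 (SE 0.03) and Fabp3 by 0.52 (SE 0.06) on the log2 scale for each unit of slow fibre level. The slopes were 0.30 (SE 0.04) for Slc27a1, 0.11 (SE 0.02) for Fabp4 and 0.04 (SE 0.03) for Vldlr. The edgeR adjusted p was 1.65e-09 for Lpl, 8.69e-06 for Fabp3, 7.77e-05 for Slc27a1, 0.00304 for Fabp4 and 0.308 for Vldlr, so 4 of 5 members passed, beside 22.0% of all genes. The other marker levels were read among the same 18 rats. With the fast fibre level, Lpl had r = -0.667 and rho = -0.664 (permutation adjusted p = 0.0206 and 0.0329, r = -0.622 without the 2 farthest) and Vldlr r = 0.776 and rho = 0.711 (permutation adjusted p = 0.0584 and 0.0481, r = 0.700 without the 2 farthest). With the endothelial level, Fabp3 had r = 0.741 and rho = 0.668 (permutation adjusted p = 0.0206 and 0.0481, r = 0.703 without the 2 farthest) and Fabp4 r = 0.629 and rho = 0.645 (permutation adjusted p = 0.0584 and 0.0481, r = 0.587 without the 2 farthest). The 8 endothelial markers behind that level did not move together. By the edgeR adjusted p, 3 rose, 1 fell and 4 did not pass over all CC rats. No member passed with the adipocyte level among these 18 rats. Over all 24 rats, Slc27a1 (r = 0.498, permutation adjusted p = 0.0250) and Fabp4 (r = 0.488, permutation adjusted p = 0.0412) passed with it. Lpl then passed by rank only, and Fabp3 and Vldlr did not pass. With the fast fibre level over all 24 rats, Vldlr passed (r = 0.753, permutation adjusted p = 0.00542) and Lpl did not (r = -0.342, permutation adjusted p = 0.207). Among the 10 pairs of members, Lpl and Slc27a1 had r = 0.742 and rho = 0.771 (permutation adjusted p = 0.0176 and 0.0048, r = 0.686 without the 2 farthest). Lpl and Fabp3 had r = 0.643 and rho = 0.709 (permutation adjusted p = 0.0481 and 0.0148, r = 0.758 without the 2 farthest), and no other pair passed among these 18 rats. Over all 24 rats, every pair without Vldlr passed and no pair with Vldlr did.

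**Figure D3:**
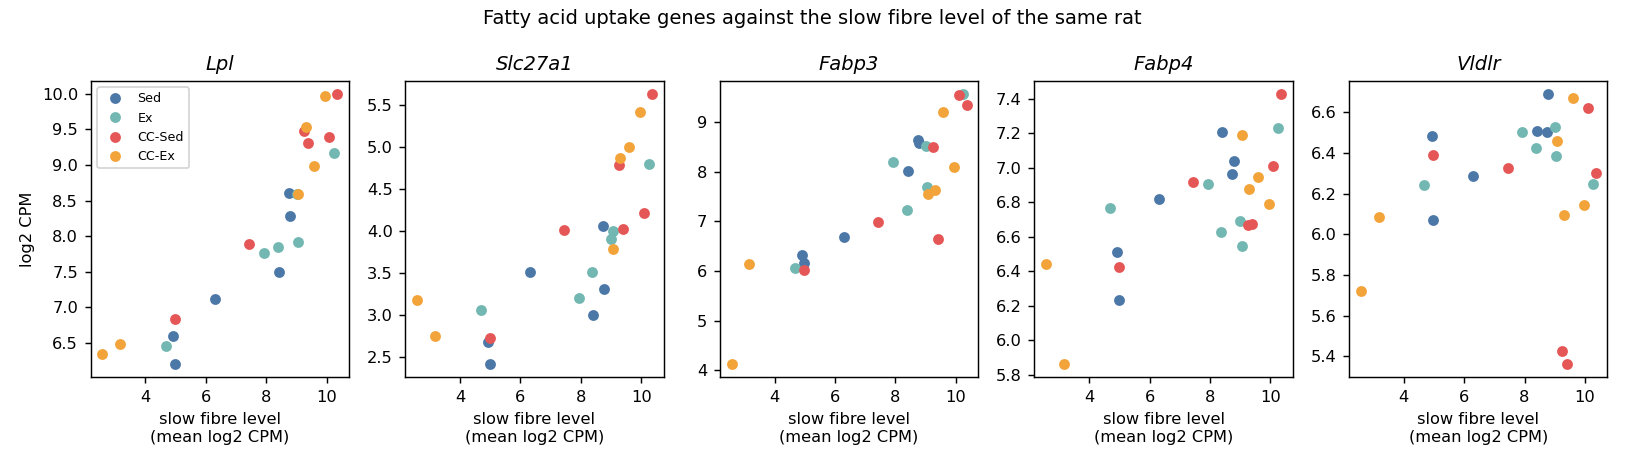
Log2 CPM of each gene against the slow fibre level of the same rat (mean log2 CPM of 6 markers), 1 point per rat, coloured by group. Lpl and Fabp3 climb with the slow fibre level, Slc27a1 climbs among the rats to the right, and CC-Ex replicates 4 and 5 lie at the far left (3.16 and 2.57).

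The slow fibre level was 7.02 ± 1.85 in Sed, 8.59 ± 2.04 in CC-Sed, 8.22 ± 1.90 in Ex and 7.28 ± 3.43 in CC-Ex (SD, n = 6). The median log2 fold change of the 6 markers was 1.67 in sedentary and 0.04 in trained rats, and none passed the test in either comparison. The study, by DESeq2, did list Tnnc1, Tnni1, Myl3, Tpm3 and Atp2a2 among its upregulated DEGs in CC-Sed. Its log2 fold changes for Tnnc1, Tnni1, Myl3 and Tpm3 were also larger than the 2.01, 1.64, 1.70 and 1.97 found here. The reason was not tested. The difference between CC and control at a given slow fibre level was read from the model that held both, and whether CC itself shifts that level was not tested by it. The values below are thus conditional on a level built mostly from genes that the study called changed. Lpl was then higher in CC rats by 0.76 on the log2 scale over all groups (1.69-fold, interval 0.48 to 1.04, edgeR adjusted p = 6.58e-04), by 0.69 (SE 0.20, adjusted p = 0.0308) in sedentary and by 0.83 (SE 0.19, adjusted p = 0.0380) in trained rats. The SE over all groups was 0.13 in place of 0.42, and the log2 fold changes of the sedentary and trained comparisons, 1.51 and 0.69 before, came to lie 0.14 apart (interval -0.43 to 0.72). Slc27a1 was higher by 0.68 over all groups (1.60-fold, edgeR adjusted p = 0.00925), while its values of 0.63 in sedentary and 0.73 in trained rats missed the threshold (edgeR adjusted p = 0.107 and 0.123). The value of Fabp3 turned from 0.66 to -0.21 in sedentary rats (adjusted p = 0.697), and Fabp4 and Vldlr had -0.06 and -0.24 over all groups (adjusted p = 0.673 and 0.138). Members past the adjusted p were 2 of 5 over all groups (35.7% of all genes), 1 of 5 in sedentary rats (13.0%) and 1 of 5 in trained rats (1.43%), and no value reached a log2 fold change of 1.

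These values were refitted in subsets of the same 24 rats, which share most of their animals and are no replication. For all CC rats against all controls, Lpl passed without any of the 24 rats in turn (0.70 to 0.81, highest adjusted p 0.00178), and so did Slc27a1 (0.57 to 0.74, highest adjusted p 0.0284). Within sedentary rats Lpl passed in 6 of 12 such fits (lost without Sed 2, 4, 5 or 6 or CC-Sed 1 or 6, highest adjusted p 0.0862), and within trained rats in 2 of 12 (kept without CC-Ex 1 or 4, highest adjusted p 0.104). In only the 18 rats above the gap in slow fibre level, Lpl differed by 0.63 over all groups (interval 0.24 to 1.01, edgeR adjusted p = 0.0198, with 28.4% of all genes passing). The sedentary and trained values there were 0.55 and 0.71 (adjusted p = 0.129 and 0.101, with 19.4% and 2.43% of all genes passing), and Slc27a1 had 0.65 over all groups (adjusted p = 0.0682).

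**Figure D4:**
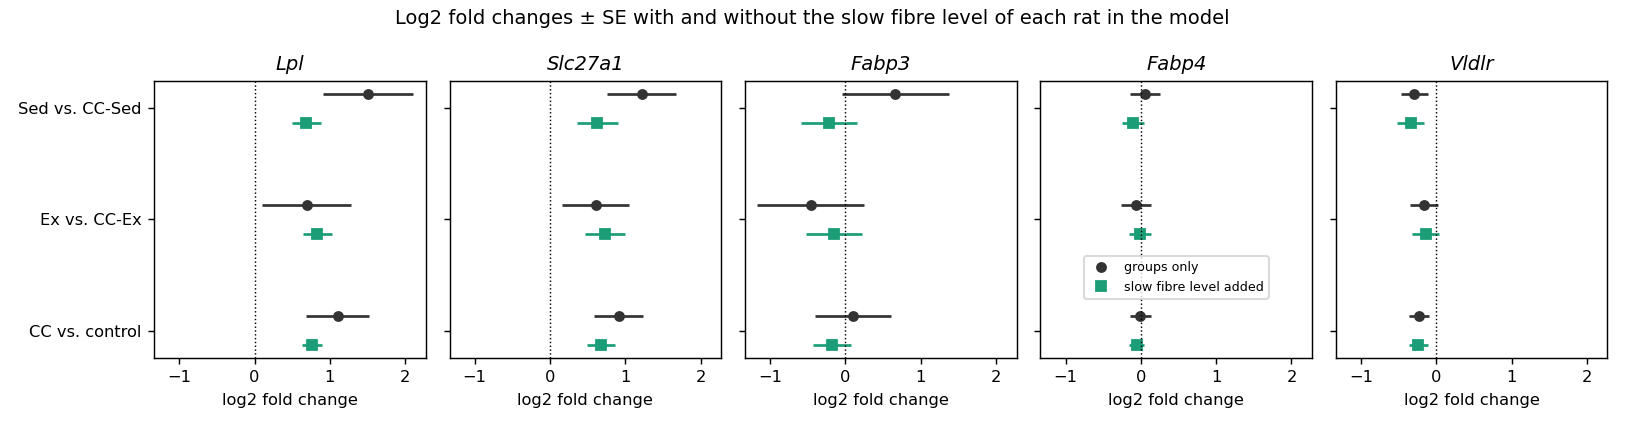
Log2 fold changes with 1 SE to either side, from the model of groups alone (circles) and from the model with the slow fibre level of each rat (squares). For Lpl the squares of the sedentary and the trained comparison lie close together at 0.69 and 0.83, with shorter lines than the circles at 1.51 and 0.69.

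Promoter sequence was on hand in RefSeq (build GRCr8, not the build of the counts) for 3 of the 5 genes. The 250 bases before the transcription start are printed for Slc27a1 (chr16:18312717-18312966) and Fabp3 (chr5:147935875-147936124), which went with the slow fibre level, and for Vldlr (chr1:234240436-234240685), which did not, all on the plus strand. Capitals mark a match to AGGTCA, a hexamer bound by nuclear receptors, read on either strand.
Slc27a1: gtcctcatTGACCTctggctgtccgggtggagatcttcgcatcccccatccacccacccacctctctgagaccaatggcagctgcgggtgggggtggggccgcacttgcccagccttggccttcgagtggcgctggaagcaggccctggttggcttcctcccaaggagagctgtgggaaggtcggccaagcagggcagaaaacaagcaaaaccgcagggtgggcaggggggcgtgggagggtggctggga
Fabp3: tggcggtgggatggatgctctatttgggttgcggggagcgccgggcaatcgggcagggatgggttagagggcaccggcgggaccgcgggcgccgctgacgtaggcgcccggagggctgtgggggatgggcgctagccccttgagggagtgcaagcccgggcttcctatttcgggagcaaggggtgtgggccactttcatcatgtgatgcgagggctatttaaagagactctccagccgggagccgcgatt
Vldlr: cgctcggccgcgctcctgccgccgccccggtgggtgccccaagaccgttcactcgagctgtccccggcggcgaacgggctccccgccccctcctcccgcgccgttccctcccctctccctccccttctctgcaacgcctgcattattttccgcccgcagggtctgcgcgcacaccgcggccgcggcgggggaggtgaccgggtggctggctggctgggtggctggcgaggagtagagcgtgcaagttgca
The search covered these bases and the next 50. The promoter of Slc27a1 held 1 AGGTCA on the opposite strand, 242 to 237 bases before the start, and those of Fabp3 and Vldlr held none. This hexamer stood in 16.2% of all 33469 promoters of the same length. A direct repeat of AGGNCA with 1 base between, of the kind that PPAR binds with RXR (0.415% of promoters), and TGTTCT, the hexamer of the glucocorticoid receptor (20.7%), were in none of the 3. A G or C stood at 65.6% of the printed bases of Slc27a1 and of Fabp3 and at 73.6% of those of Vldlr, against a median of 51.2% over all promoters.

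Other genes of fatty acid uptake were read from lists of the pathway. In sedentary rats 4.30% of all genes passed the adjusted p with a higher and 2.16% with a lower level in CC, in trained rats 0.875% and 0.120%, and over all CC rats 17.2% and 10.6%. The genes named below for all CC rats alone were taken after their values were seen, and they passed without any 1 of the 24 rats unless said otherwise. Of 11 partners of the lipase in the table (of 19 listed), 1 rose and none fell in both comparisons. It was Sdc4, a heparan sulfate proteoglycan of the cell surface. Its lowest, median and highest levels were 8.35, 16.4 and 38.8 CPM in Sed and 38.3, 92.7 and 161 CPM in CC-Sed, with a log2 fold change of 2.32 (SE 0.49, edgeR adjusted p = 0.0137). In trained rats these were 7.09, 20.5 and 22.1 CPM in Ex and 13.0, 63.6 and 169.8 CPM in CC-Ex, with a log2 fold change of 1.98 (SE 0.49, edgeR adjusted p = 0.0490). The trained call of Sdc4 held in 2 of 12 fits that left out a rat (without CC-Ex 1 or 4) and was lost in the fit to the 12 rats alone (adjusted p = 0.169), while the sedentary one held in 12 of 12. Of the 11, 2 rose over all CC rats, Sdc4 (2.15, edgeR adjusted p = 4.08e-04) and the protease gene Furin (0.73, edgeR adjusted p = 0.00386), and Lmf1, which helps the lipase to fold, fell (-0.35, edgeR adjusted p = 0.00589).

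Other transporters and binding proteins gave 1 lower gene of 9 in sedentary and none in trained rats. Slc27a3, an acyl-CoA synthetase of the transporter family, fell from a median of 1.01 CPM in Sed (0.969 to 1.13) to 0.509 CPM in CC-Sed (0.366 to 0.698), with no overlap (log2 fold change -1.01, SE 0.29, edgeR adjusted p = 0.0452). This gene lay near the floor, with 38 to 55 counts in Sed and 18 to 25 in CC-Sed where the lowest count of any gene was 10. It was not tested in the fit with at least 50 counts in every rat. The call of Slc27a3 held in 2 of 12 fits that left out a rat (without CC-Sed 2 or 4). In trained rats it had -0.75 (SE 0.28, edgeR adjusted p = 0.139). Of the 9, 2 fell over all CC rats, Slc27a3 (-0.88, edgeR adjusted p = 0.00491) and the caveolar coat gene Cavin1 (-0.42, edgeR adjusted p = 0.00396). None of 8 acyl-CoA synthetases, which trap fatty acids inside the cell, and none of 9 other lipoprotein receptors passed in sedentary or in trained rats. Synthetase genes did pass over all CC rats, where Acsl4 (1.32, edgeR adjusted p = 0.0108) and Acss1 (1.18, edgeR adjusted p = 0.00269) rose and Acsl6 fell (-0.89, edgeR adjusted p = 0.0360), as did the receptor gene Scarb1 (-0.45, edgeR adjusted p = 0.0455). With single rats removed, Acsl6 passed in 13 and Scarb1 in 11 of 24 fits (highest adjusted p 0.0639 and 0.0893).

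Of 11 genes of endothelial control of fatty acid transfer, 1 rose and 1 fell in sedentary rats, and none passed in trained rats. The Notch ligand gene Dll4 rose from a median of 11.6 to 18.5 CPM (log2 fold change 0.69, SE 0.20, edgeR adjusted p = 0.0423). The apelin receptor gene Aplnr fell from a median of 21.0 to 6.41 CPM (log2 fold change -1.84, SE 0.45, edgeR adjusted p = 0.0215). Aplnr lay between 10.6 and 26.1 CPM in Sed and between 1.53 and 8.93 CPM in CC-Sed, so these groups did not overlap. Without 1 rat, Dll4 passed in 4 of 12 fits (without Sed 1 or CC-Sed 2, 4 or 5) and Aplnr in 9 of 12 (lost without Sed 2 or CC-Sed 1 or 6). Dll4 (0.55) and the VEGF receptor gene Kdr (0.60) rose over all CC rats, and Aplnr (-1.26) and the transcription factor genes Meox2 (-0.50) and Tcf15 (-0.68) fell (edgeR adjusted p from 0.00407 to 0.0260).

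The largest group of movers were regulators and targets of the PPAR nuclear receptors, which sense fatty acids. This was also the longest list, and like the others it was chosen with earlier results of these data known. Of 25 in the table (of 27 listed), 7 rose and none fell in sedentary rats, and 1 rose and none fell in trained rats, with median log2 fold changes of 0.50 and 0.11 against 0.02 and 0.01 for all genes. In all CC rats together 9 rose and 1 fell, with a median of 0.31 against 0.01. The gene that fell was the coactivator gene Ppargc1b (-1.03, edgeR adjusted p = 0.0449), a DEG that passed in only 7 of 24 fits with single rats removed (highest adjusted p 0.0787). Of the 9, Ucp3 (14 of 24) and Hadhb (13 of 24) also did not pass in all of these fits. Plin4, a coat protein of lipid droplets, rose in both comparisons, by 1.20 (SE 0.21, edgeR adjusted p = 0.00479) in sedentary and 0.90 (SE 0.21, edgeR adjusted p = 0.0409) in trained rats. It lay between 132 and 340.5 CPM in Sed and between 443 and 768 CPM in CC-Sed, without overlap, and between 204 and 316 CPM in Ex and 347 and 659 CPM in CC-Ex, again without overlap. In sedentary rats Cpt1b, the gate of fatty acids into mitochondria, rose by 0.89 (SE 0.20, edgeR adjusted p = 0.0147), and the β-oxidation genes Decr1 and Ech1 rose by 1.21 (SE 0.27, adjusted p = 0.0147) and 0.87 (SE 0.20, adjusted p = 0.0164). The thioesterase gene Acot2 rose by 1.10 (SE 0.33, adjusted p = 0.0484) and the receptor gene Ppard by 0.73 (SE 0.18, adjusted p = 0.0210). In trained rats the values of Cpt1b, Decr1, Ech1, Acot2 and Ppard were 0.39, 0.28, 0.47, 0.10 and 0.67 (adjusted p from 0.0616 to 0.859). With the slow fibre level in the model, Plin4 had 1.19 and 0.91 (adjusted p = 0.00793 and 0.0423) in sedentary and trained rats, and Sdc4 had 2.23 and 2.12 (adjusted p = 0.0154 and 0.0437). The sedentary values of the other 5 PPAR genes named were smaller in that model, falling from 1.10 to 0.71 for Acot2, from 1.21 to 0.92 for Decr1, from 0.89 to 0.73 for Cpt1b, from 0.87 to 0.73 for Ech1 and from 0.73 to 0.70 for Ppard. All 5 still passed the adjusted p (0.00555 to 0.0246), but Acot2 and Decr1 were then below the log2 fold change of 1 that a DEG needs. In only the 18 rats above the gap Acot2 had 0.62 (adjusted p = 0.0518). Without 1 rat, Plin4 passed in 12 of 12 sedentary fits but in 4 of 12 trained ones (without CC-Ex 1, 2, 3 or 4), and in the fit to the 12 trained rats alone its adjusted p was 0.169. In sedentary rats Cpt1b and Decr1 passed in 12 of 12, Ech1 in 11 (lost without CC-Sed 6), Ppard in 10 (lost without Sed 2 or 3) and Acot2 in 3 (without Sed 4 or CC-Sed 2 or 4). The difference between the sedentary and the trained value was not past the threshold for any of these genes.

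**Figure D5:**
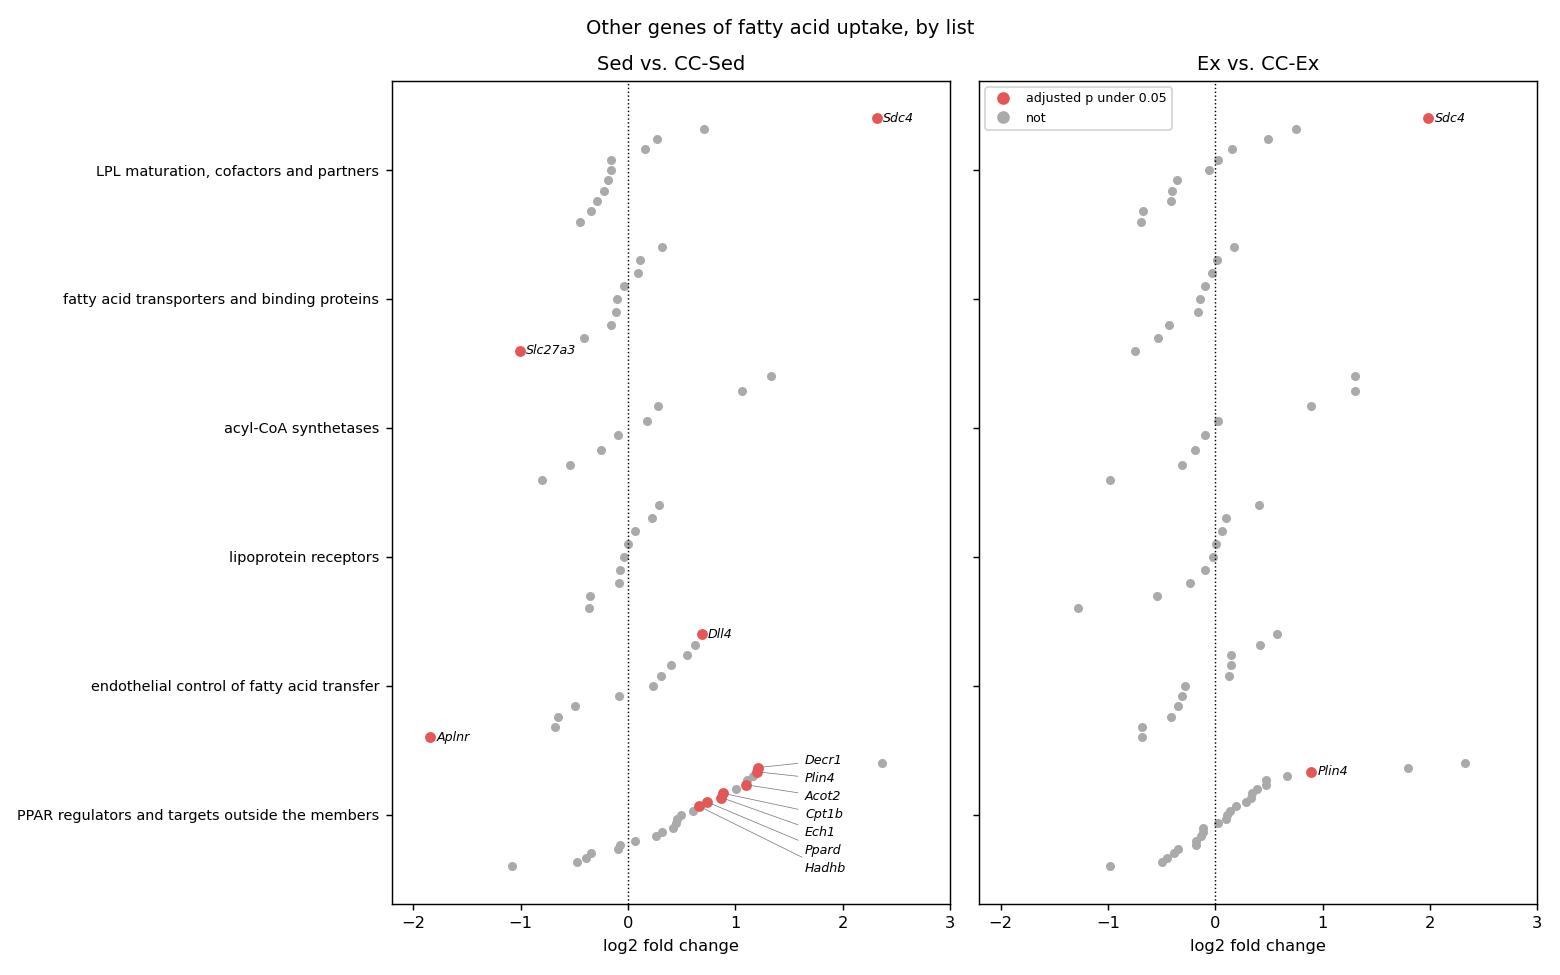
Log2 fold change of each other gene of fatty acid uptake in the table, by list, for the sedentary (left) and the trained comparison (right); red points passed an adjusted p of 0.05 and are named. Red points gather among the PPAR regulators and targets in sedentary rats, with 7 of 25, and Sdc4 stands far to the right in both panels (2.32 and 1.98).

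The genes whose pattern over the 24 rats was most like that of each member, by Pearson correlation of log2 CPM with group means removed, were named as a description. They were Ldhb, Fzd9 and Ccdc8 for Lpl (r = 0.970, 0.968 and 0.967) and Agpat2, Lpl itself and Slc2a13 for Slc27a1 (r = 0.905, 0.900 and 0.888). For Fabp3 they were Etfb, Eci1 and Acot2 (r = 0.945, 0.943 and 0.940), and all 3 belong to mitochondrial fatty acid metabolism. For Fabp4 they were Lipe, the hormone-sensitive lipase, Rph3al and Dglucy (r = 0.863, 0.860 and 0.853), and for Vldlr they included Schip1 and Zfp111 (r = 0.875 and 0.875). All 24 rats share the spread in slow fibre level described above, including the 6 rats below the gap.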

How the data were processed

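RNA from the medial gastrocnemius of 24 rats was sequenced as poly-A stranded libraries, 1 rat each. Per the labels and methods, the authors trimmed the reads with Trim Galore, estimated transcript abundance with Salmon on the mRatBN7.2 transcriptome and summed it to genes. The deposited values are estimated counts per gene, not scaled for library size. All were whole numbers and none was below 10. Groups and replicate numbers were taken from the sample labels.

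Counts were rounded and analysed in R 4.3.3 with edgeR 4.0.16 (TMM, quasi-likelihood F test, 1 model of 4 groups, Benjamini-Hochberg over 10851 genes, tested on simulated data first). The SE was the log2 fold change divided by the square root of F. Log2 CPM used a prior count of 2. The slow fibre level entered as a covariate. Correlations used 100000 permutations within groups, or all 720 orders for 6 rats. Alternatives were DESeq2 1.42.0, limma 3.58.1 (voom with quality weights), upper-quartile normalization, no filter, at least 50 counts in every rat, a replicate block, the library number as a covariate, only the 12 rats of a comparison, a prior count of 0.5, and each rat left out. The main fit had kept all 10851 genes, so the fit with no filter repeated it and tested nothing further. The within-gap fits, the leave-one-out fits with the slow fibre level, the fits without CC-Ex replicates 4 and 5, the alternatives for pathway genes, and the correlations and ratios were added after the data were seen. Each rat is an animal of its own, so p-values measure the spread between animals.

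The members and lists were chosen with earlier results of these data known. Pathway genes were named if their adjusted p was under 0.05 in the sedentary or the trained comparison of CC with control, at most 6 per list and comparison (so Hadhb, the 7th in its list, is only counted), marker genes as the first listed, and likeness genes as the 3 highest correlations (1 of those for Vldlr is not reported here). The authors' morphometry was not used here, and their qPCR was only quoted for Lpl. Protein sequences and the promoters of Lpl and Fabp4 were not analysed here.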

Additional observations from a re-analysis of the deposited data

Results flagged for a closer look

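Among 84 sets of 6 rats of a group (the members, the named pathway genes and the marker sums), 3 had a rat far from the other 5 by the test of Dixon, which chance alone gives for about 1 in 20 sets. In Ex, replicate 4 had the highest level of Acot2 at 38.8 CPM. In CC-Ex, replicate 3 had the highest macrophage marker sum at 148 CPM. In Sed, replicate 5 had the lowest erythroid marker sum at 49.9 CPM. None of the 3 was a level of Lpl, Slc27a1, Fabp3, Fabp4 or Vldlr.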

How the results depend on the processing

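Each comparison was refitted under the alternatives, and 0 members were DEGs in trained rats, in the comparisons of training and in the interaction under all of them. Between Sed and CC-Sed the count was 1 with DESeq2 (Slc27a1, with 2.93% of all genes DEGs), 2 without CC-Ex replicates 4 and 5 (3.40%), and 0 to 1 with each rat left out (0.673% to 3.72%; 1, Slc27a1, without CC-Sed replicate 2). Over all CC rats it was 1 by the adjusted p alone (27.8%), 1 with DESeq2 (2.93%) and 2 with limma-voom (2.54%), 2 without CC-Ex replicates 4 and 5 (2.50%), and 0 to 2 with each rat left out (1.97% to 3.47%; not 0 without Sed 1, Ex 4, CC-Sed 2 or 3, or CC-Ex 4 or 5). There the adjusted p of Slc27a1 was 0.0568 with upper-quartile normalization and 0.0760 with the library number. The cause was not tested. Library numbers tended to be lower in CC rats (4 to 21 in CC-Sed and 1 to 14 in CC-Ex) than in controls (9 to 24 in Sed and 7 to 23 in Ex). Changes under that setting therefore cannot be fully told apart from the difference between CC and control.

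None of the values that changed sign passed the adjusted p. Fabp3 over all CC rats had -0.18 with the slow fibre level and -0.56 with it in the rats above the gap, and -0.21 and -0.59 in sedentary rats. In trained rats Fabp3 had 0.024 with the library number and 0.026 without CC-Ex 4 and 5. Between CC-Sed and CC-Ex it had 0.0078 with limma-voom, and between Sed and Ex -0.084 and in the interaction 0.067 with the slow fibre level. Fabp4 over all CC rats had 0.087 with the library number, 0.076 with limma-voom and 0.10 without CC-Ex 4 and 5. In trained rats Fabp4 had 0.060 with the library number, 0.064 with limma-voom, 0.15 without CC-Ex 4 and 5 and 0.086 with the slow fibre level above the gap. In sedentary rats it had -0.11 and -0.19 with the slow fibre level (all rats, above the gap) and -0.023 with upper-quartile normalization. Its interaction was 0.10 with the slow fibre level and 0.088 without CC-Ex 4 and 5, and it had 0.071 between CC-Sed and CC-Ex without them. Lpl between CC-Sed and CC-Ex had 0.26 with limma-voom, 0.14 with the slow fibre level and 0.22 without CC-Ex 4 and 5, and with the slow fibre level -0.0068 between Sed and Ex and 0.14 in the interaction. Slc27a1 between CC-Sed and CC-Ex had 0.00039 with DESeq2, 0.0032 with at least 50 counts, 0.074 with the library number, 0.31 with limma-voom, 0.31 with the slow fibre level, 0.043 with upper-quartile normalization and 0.39 without CC-Ex 4 and 5, and its interaction was 0.10 with the slow fibre level.

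With each rat left out, signs changed within these ranges: Fabp4 from -0.077 to 0.15 in sedentary rats, -0.18 to 0.057 in trained rats, -0.12 to 0.071 between Sed and Ex, -0.24 to 0.0079 in the interaction and -0.074 to 0.057 over all CC rats. Fabp3 ran from -1.03 to 0.037 in trained rats and -0.19 to 0.35 over all CC rats, Slc27a1 from -0.30 to 0.39 and Vldlr from -0.034 to 0.20 between CC-Sed and CC-Ex, Vldlr from -0.11 to 0.013 between Sed and Ex, and Acot2 from -0.12 to 0.36 in trained rats.

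The labels reuse replicate numbers 1 to 6, but same-numbered rats did not deviate together (correlations from -0.50 to 0.36 in sedentary and from -0.42 to 0.15 in trained pairs, and not every rat correlated best with its own number). With the replicate number as a block, Lpl in sedentary rats had 1.64 (edgeR adjusted p = 0.132), and Slc27a1 over all CC rats had an adjusted p of 0.0740. The adjusted p was also over 0.05 for Acot2 (0.0607), Slc27a3 (0.0522) and Dll4 (0.0627) in sedentary and for Sdc4 (0.0972) and Plin4 (0.0761) in trained rats. With upper-quartile normalization it was over 0.05 for Acot2 (0.0700) and Dll4 (0.0689) in sedentary and for Sdc4 (0.0691) and Plin4 (0.0675) in trained rats. In trained rats this was also so for Sdc4 with at least 50 counts (0.0524) and for Plin4 with the library number (0.0519), without CC-Ex 4 and 5 (0.0586) and with the slow fibre level above the gap (0.0727), and in sedentary rats for Slc27a3 with the last (0.0536). In all CC rats together Acsl6, Tcf15 and Ppargc1b did not pass with the library number, Meox2 with limma-voom, Scarb1 and Ucp3 with limma-voom, the block or the slow fibre level above the gap, and Hadhb with the last or upper-quartile normalization. The 95% interval of Lpl in sedentary rats ran from a fold of 1.21 to 6.72, at a mean of 16999 counts per rat. With group means kept, the likeness of Eci1 and Acot2 to Fabp3 was 0.800 and 0.814 and that of Lipe and Dglucy to Fabp4 0.684 and 0.595.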

Other observations

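The 5 genes were also set against each other inside each rat, as log2 ratios of their CPM, in all 10 pairs and in both comparisons of CC with its control (20 two-sided exact permutation tests over 924 arrangements, chosen after the levels had been seen). None passed after adjustment (smallest adjusted p = 0.123). The ratio of Lpl to Fabp3 had the same direction in both. It was -0.02 ± 0.36 (SD, n = 6) in Sed and 0.98 ± 0.92 in CC-Sed, with 5 of 6 CC-Sed rats past the Sed median (exact permutation p = 0.0152, adjusted p = 0.123), and 0.08 ± 0.42 in Ex and 1.19 ± 0.97 in CC-Ex, with 5 of 6 CC-Ex rats past the Ex median (exact permutation p = 0.0368, adjusted p = 0.123). The ratio of Slc27a1 to Fabp4 in CC-Sed exceeded the median of Sed in all 6 rats and differed by 1.00 (exact permutation p = 0.0130, adjusted p = 0.123), and in trained rats it differed by 0.53 (exact permutation p = 0.232, adjusted p = 0.433).

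Pdk4, a kinase that turns muscle from glucose to fatty acid oxidation and a listed PPAR target, was singled out after its values were seen. It had log2 fold changes of 2.36 (SE 0.81, edgeR adjusted p = 0.0718) in sedentary and 2.32 (SE 0.81, edgeR adjusted p = 0.116) in trained rats, and 2.34 (SE 0.57, edgeR adjusted p = 0.00635) over all CC rats.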
